A study of Homo sapiens with 8 samples.

Results

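The miR-148 and miR-152 family comprises 3 human hairpin genes whose main products share one seed. Its members were chosen by name, as the rows hsa-miR-148a-3p and hsa-miR-148b-3p and every row of miR-152 with any arm suffix. This rule was met by 4 of the 945 deposited miRNAs: hsa-miR-148a-3p, hsa-miR-148b-3p, hsa-miR-152-3p and hsa-miR-152-5p. Small RNA was sequenced from H1299, a widely used line of non-small cell lung carcinoma from a lymph node, which lacks p53. Cells carrying an empty vector (H1299/EV) were compared with cells stably expressing mutant p53R273H from a CMV promoter (H1299/mutant p53R273H), each untreated or treated for 24 h with etoposide, a topoisomerase II poison that causes DNA double-strand breaks. The labels disagree on the dose, which is 10 µM under treatment and 10 mM under growth. Each of the 4 groups had 2 libraries. The H1299/EV cells were infected with the vector and came from another laboratory, while the mutant line was transfected and grown from G418-resistant colonies, so that mutant p53 and any other difference between the lines cannot be told apart. The study calls the libraries of a group biological replicates, but no source used here says whether they came from separate cultures, and p-values therefore measure only the spread between these libraries.

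A miRNA guides Argonaute proteins to messenger RNAs that pair with its seed, and this usually lowers translation or stability of the target. The family is best known for targeting DNMT1, the maintenance DNA methyltransferase, with DNMT3B reported for miR-148, and its members have been described as reduced in several carcinomas. One arm of each hairpin usually accumulates while the other is degraded, and in this family the dominant arm is the 3p arm.

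The mature sequences below are shown because the shared seed defines the family and because the members differ at few bases, which bears on how well reads can be told apart. They were taken from RefSeq (GRCh38.p14), in which all 4 members were matched, and capitals mark the seed, bases 2 to 8 from the 5′ end.
miR-148a-3p: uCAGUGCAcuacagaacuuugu
miR-148b-3p: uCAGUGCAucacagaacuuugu
miR-152-3p: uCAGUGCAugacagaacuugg
miR-152-5p: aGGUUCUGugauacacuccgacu
miR-148b-5p: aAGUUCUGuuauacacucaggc
The seed CAGUGCA stood at bases 2 to 8 of 3 of 2370 mature miRNAs in RefSeq, and these were the 3p members. Counted from the 5′ end, miR-148a-3p and miR-148b-3p differed by C9U and U10C. From miR-148a-3p to miR-152-3p the substitutions were C9U, U10G and U20G, and from miR-148b-3p to miR-152-3p they were C10G and U20G, miR-152-3p being 1 base shorter. How many mismatches the alignment allowed is not given in the sources used here, so reads could be split between these near-identical members. The 5p arms of MIR152 and MIR148B have other seeds.

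The hairpins lie on 3 chromosomes, all in introns (GRCh37, GENCODE 44 lifted to that build). MIR148A is at chr7:25989539-25989606 on the minus strand, in an intron of a long non-coding RNA (ENSG00000270933). MIR148B is at chr12:54731000-54731098 on the plus strand, in an intron of COPZ1, which encodes a zeta subunit of the COPI vesicle coat, and also in an intron of a long non-coding RNA (ENSG00000258344). MIR152 is at chr17:46114527-46114613 on the minus strand, in an intron of COPZ2, the paralog of COPZ1.

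Libraries held 234545 to 579367 reads on all features, of which 213007 to 536991 fell on miRNAs, and miR-21-5p alone took 30.6% to 44.5% of the miRNA reads. The libraries were therefore shallow for the rarer members. Values are normalized read counts, that is, reads divided by the authors' size factor for the library within one table, and reads per 1000000 miRNA reads (RPM) where all 8 libraries are set side by side. A few dominant miRNAs can move RPM, so RPM after TMM scaling is given beside it, a scaling added after the data were seen.

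The members kept a steep order of abundance. Reads of miR-148b-3p numbered 531 and 300 in untreated H1299/EV, 309 and 533 in etoposide-treated H1299/EV, 236 and 501 in untreated mutant cells and 655 and 627 in treated mutant cells. For miR-148a-3p the corresponding reads were 65 and 36, 42 and 63, 46 and 70, and 111 and 121. For miR-152-3p they were 15 and 8, 29 and 9, 4 and 1, and 12 and 11. In every library miR-148b-3p stood above miR-148a-3p and miR-148a-3p above miR-152-3p, at 522 to 1797, 102 to 347 and 2.46 to 136 RPM over the 8 libraries. The ranges of miR-148a-3p and miR-152-3p overlapped across libraries only through the first treated H1299/EV library, at 136 RPM of miR-152-3p. Among all miRNAs, miR-148b-3p ranked between 48 and 61, miR-148a-3p between 102 and 131 and miR-152-3p between 153 and 390.

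The other arms were rare, except that of MIR148B. The fourth member, miR-152-5p, had 2 reads in each etoposide-treated H1299/EV library, 1 read in the first untreated mutant library and 0 in the other 5. A count of 0 allows up to 3 reads, or 5.59 to 12.0 RPM in the libraries with 0, so no difference of miR-152-5p was detectable at this depth, and it did not pass the filter in any comparison. Reads of miR-148a-5p numbered 0 to 4. For miR-148b-5p there were 26 and 14 reads in untreated and 34 and 22 in treated H1299/EV, against 35 and 44 in untreated and 65 and 65 in treated mutant cells.

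**Figure D1:**
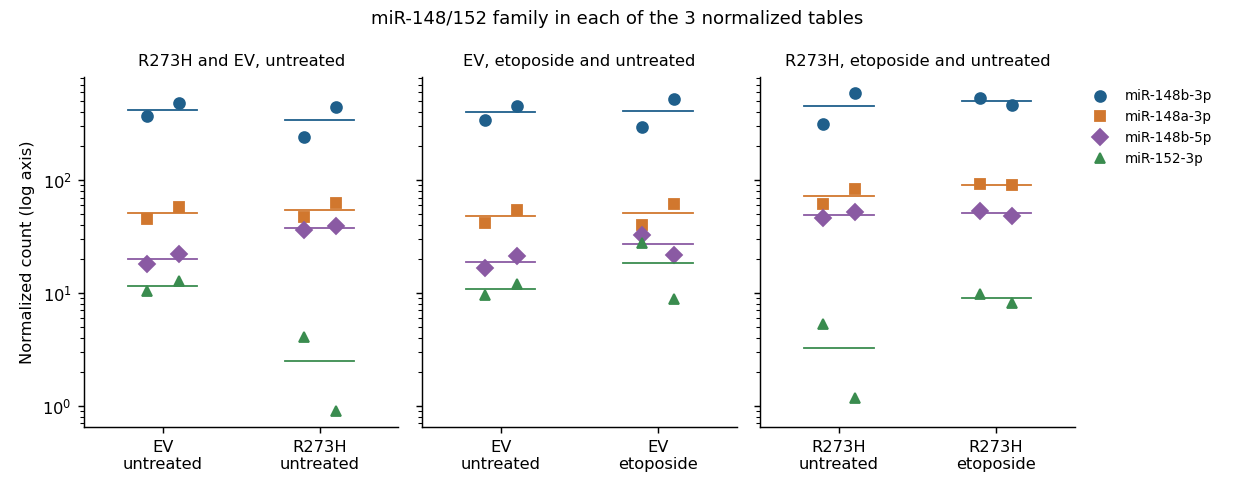
Normalized read counts (log axis) of 3 members and of miR-148b-5p in each of the 3 tables, with 1 point per library and a line at the mean of 2 libraries. miR-148b-3p lies highest and miR-152-3p lowest, and the untreated mutant libraries hold the lowest miR-152-3p values, 4.1 and 0.89.

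The comparison of untreated lines asks which miRNAs differ with mutant p53R273H. Of the family, miR-152-3p was lower in mutant cells, while miR-148a-3p and miR-148b-3p did not pass the test. Normalized counts of miR-152-3p were 10.4 and 12.8 in H1299/EV (11.6 ± 1.68, SD, n = 2) and 4.1 and 0.89 in mutant cells (2.50 ± 2.27, SD, n = 2). Both mutant libraries were below both H1299/EV libraries. The filter, set at 3, was applied to the mean of both lines together, which was 7.03 for miR-152-3p. Its mutant mean of 2.50 alone lay under that cutoff, so it was tested only because of its level in H1299/EV. The size of the drop therefore rests on a mutant level near the floor. On the log2(normalized count + 1) scale the difference was -2.01 (SE 0.63, 95% interval -3.33 to -0.69, adjusted p = 0.0307, limma with Benjamini-Hochberg adjustment over 304 miRNAs). In reads, 23 against 5 gave a rate 5.02-fold higher in H1299/EV (interval 1.87 to 16.9, counting error only). At an adjusted p under 0.05, 1 of the 3 members tested was called, against 20.4% of all tested miRNAs (9.54% lower and 10.9% higher in mutant cells). By the study's criteria, an unadjusted p under 0.05 with a fold of at least 2, miR-152-3p was again the member that passed, against 27.3% of all tested miRNAs. The study applied these cutoffs to DESeq results. Here and below they are applied to limma or edgeR, so the outcome is not the study's own call. Libraries of the lines did not overlap for 61.5%.

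The call on miR-152-3p was made on few reads, 23 against 5. It was lost without the first (-2.73) or the second untreated mutant library (-1.29), as was every other call of this comparison. With all libraries kept, it held in 5 of 10 alternatives. Among those that lost it were edgeR (-2.37, adjusted p = 0.0541) and DESeq2 (-2.35, adjusted p = 0.186) on the recovered reads. The difference was below 0 in every alternative run that tested miR-152-3p. This miRNA was not tested where a mean of at least 10 was asked for.

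The abundant members stayed within the spread of their replicates. Normalized counts of miR-148a-3p were 45 and 57.4 in H1299/EV and 47.2 and 62.2 in mutant cells, so that the groups overlapped, with a log2 difference of 0.09 (interval -0.74 to 0.93, adjusted p = 0.886, limma). For miR-148b-3p they were 368 and 478 against 242 and 445, also overlapping, with a log2 difference of -0.35 (interval -1.06 to 0.36, adjusted p = 0.491, limma). The sign for miR-148a-3p changed to -0.06 by edgeR, and that for miR-148b-3p to 0.09 without the first untreated mutant library. Normalized counts of miR-148b-5p were 18 and 22.3 in H1299/EV and 35.9 and 39.1 in mutant cells. These did not overlap, but the log2 difference of 0.87 (interval -0.05 to 1.79, adjusted p = 0.172, limma) did not pass the test.

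**Figure D2:**
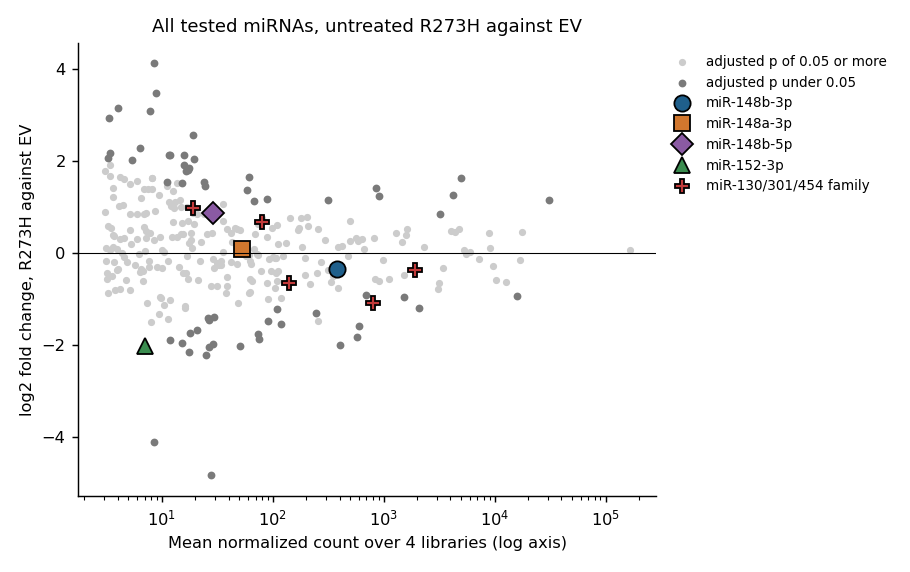
log2 fold change of untreated mutant against H1299/EV cells for the 304 tested miRNAs, against the mean normalized read count (log axis), with the family and the miR-130, miR-301 and miR-454 family marked. miR-152-3p lies at -2.01 among miRNAs of low count, and miR-148a-3p and miR-148b-3p lie near 0.

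The same comparison under etoposide was fitted with edgeR on the recovered reads of all 8 libraries, since no table held both treated groups. Here too miR-152-3p was lower in mutant cells. Its treated H1299/EV libraries held 136 and 24.8 RPM and its treated mutant libraries 23.7 and 31.5, so that the groups overlapped on this scale. After TMM scaling the values were 98.6 and 29.3 against 21.2 and 18.7, which did not overlap. The log2 difference was -1.66 (SE 0.57, interval -2.79 to -0.53, adjusted p = 0.0253, edgeR over 334 miRNAs), again 1 of the 3 members tested. Of all tested miRNAs 22.5% were called, 14.4% lower and 8.08% higher, and 25.4% met the study's criteria, as miR-152-3p did. Libraries did not overlap for 46.7% in RPM and 54.5% after TMM scaling.

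This second call was decided by the first treated H1299/EV library, which held 29 of the 38 treated H1299/EV reads of miR-152-3p. Without it the difference was -0.55 (adjusted p = 0.623, edgeR), and without the other treated H1299/EV library it was -2.29. It was also lost without the first (-1.72, adjusted p = 0.152, edgeR) or the second treated mutant library (-1.57, adjusted p = 0.192, edgeR). With all libraries kept, the call held in 2 of 5 alternatives. The untreated libraries are shared by the fits, so both comparisons of the lines are given side by side and not as separate evidence. Differences of miR-148a-3p (0.21, interval -0.52 to 0.93, adjusted p = 0.751, edgeR) and of miR-148b-3p (-0.33, interval -0.98 to 0.33, adjusted p = 0.548, edgeR) did not pass the test.

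**Figure D3:**
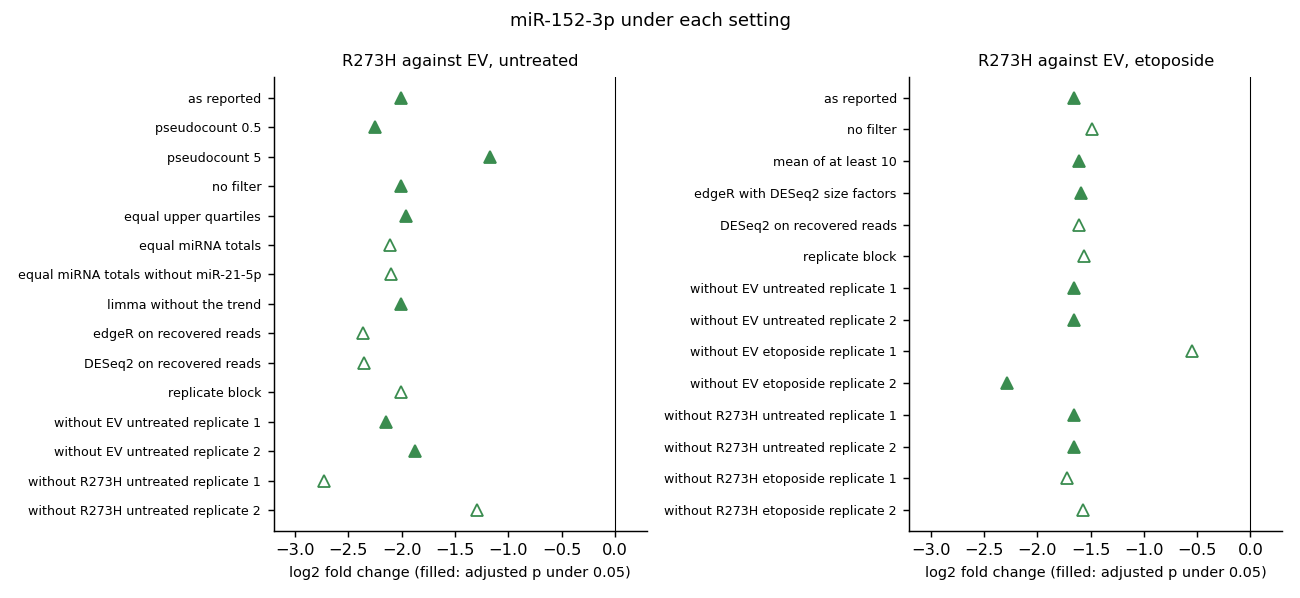
log2 fold change of miR-152-3p, mutant against H1299/EV cells, as reported and under each alternative, untreated (left) and under etoposide (right), with filled symbols where the adjusted p is under 0.05. All values are below 0, and the value nearest 0 is -0.55, under etoposide without the first treated H1299/EV library.

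Etoposide changed no member past the test in either line. In H1299/EV, normalized counts of miR-148b-3p were 342 and 454.1 untreated and 295 and 524 treated, with a log2 difference of -0.0044 (interval -0.70 to 0.69, limma). Those of miR-148a-3p were 41.9 and 54.5 against 40.0 and 62.0, a difference of 0.06 (interval -0.78 to 0.90). The treated libraries enclosed the untreated ones for both. Normalized counts of miR-152-3p were 9.67 and 12.1 untreated and 27.6 and 8.86 treated, a difference of 0.51 (interval -0.66 to 1.67, adjusted p = 0.932, limma) that turned to -0.26 without the first treated library. Of 296 miRNAs, 0.676% were called in this comparison and 6.76% met the study's criteria, none of them a member.

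In mutant cells all 3 tested members had higher means after etoposide, and none passed the test. Normalized counts of miR-152-3p were 5.32 and 1.18 untreated and 9.89 and 8.17 treated, without overlap, and the log2 difference was 1.43 (interval 0.03 to 2.82, adjusted p = 0.495, limma). It was 0.66 without the second untreated mutant library, which held 1 read, and 2.20 without the first. Those of miR-148a-3p were 61.2 and 82.7 against 91.5 and 89.8, also without overlap, a difference of 0.35 (interval -0.33 to 1.03, adjusted p = 0.738, limma). Those of miR-148b-3p were 314 and 592 against 540.0 and 466, the treated libraries lying between the untreated ones, a difference of 0.22 (interval -0.57 to 1.00, adjusted p = 0.924, limma). Libraries did not overlap for 39.3% of the 341 miRNAs tested, and limma called 0 of them, with 31 at an unadjusted p under 0.05 and 1 called by DESeq2. The study's criteria were met by 6.16%, miR-152-3p among them at an unadjusted p of 0.0454 (limma), which was lost on adjustment. At 0.66 its fold would be under 2.

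The response to etoposide was not shown to differ between the lines for any member. The difference of the responses was 0.71 for miR-152-3p (interval -1.21 to 2.63), 0.26 for miR-148a-3p and 0.13 for miR-148b-3p on the log2 scale, each with an adjusted p of 1.00 (edgeR). In this test edgeR called 0 of 334 miRNAs, with 12 at an unadjusted p under 0.05, and 3.59% met the study's criteria, none of them a member. The interval for miR-152-3p is wide enough to hold changes of more than 2-fold in either direction, and leaving out 1 library moved its value from 0.0025 (without the second untreated mutant library) to 1.995 (without the first).

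**Figure D4:**
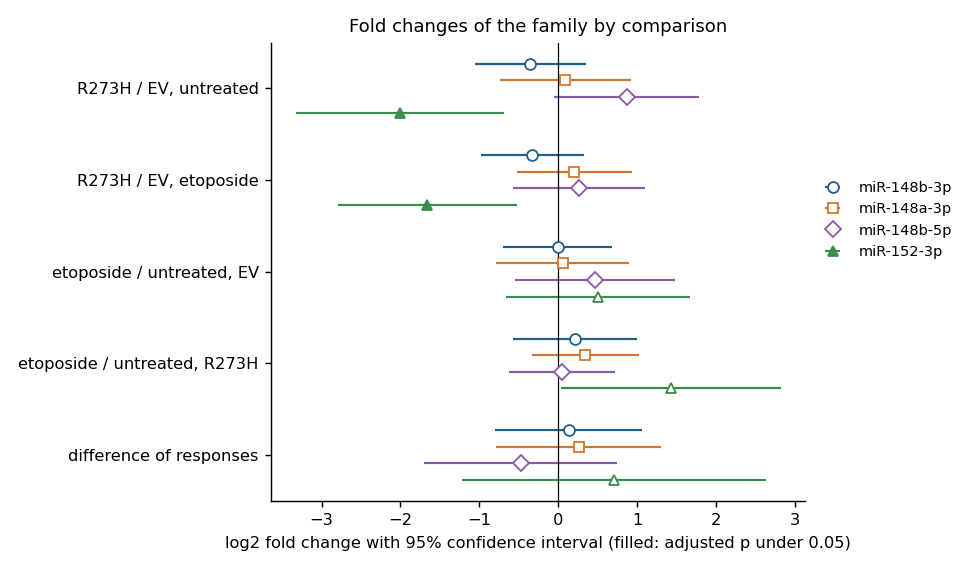
log2 fold changes with 95% confidence intervals of 3 members and of miR-148b-5p in each comparison and in the difference of the etoposide responses, with filled symbols where the adjusted p is under 0.05. Only miR-152-3p is filled, at -2.01 and -1.66 in the comparisons of the lines.

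Within the family, miR-148b-3p gave 80.9% to 87.8% of the reads of a library. The share of miR-148a-3p was 10.4% to 10.995% in the 4 H1299/EV libraries and 12.2% to 16.0% in the 4 mutant libraries. Its Wilson intervals, which cover counting error only, overlapped for some pairs of libraries and not for others. The interval was 8.43% to 13.3% in the first untreated H1299/EV library, which overlapped 9.80% to 15.2% in the second untreated mutant library but not 13.5% to 18.7% in the second treated mutant library. The share of miR-152-3p ranged from 0.175% in an untreated mutant library to 7.59% in the first treated H1299/EV library. The summed family level was 1257 ± 169 RPM in untreated and 1734 ± 83.2 in treated H1299/EV cells, and 1021 ± 545 in untreated and 1856 ± 453 in treated mutant cells (SD, n = 2). After TMM scaling these were 1585 ± 263, 1639 ± 480, 1170 ± 489 and 1334 ± 60.2, and on this scale the treated means lay within 1 SD of the untreated ones. Scaling to equal miRNA totals moved the median log2 difference of all tested miRNAs by 0.41 in H1299/EV and 0.69 in mutant cells, and direction under etoposide is therefore read from the tables' own normalization.

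Ratios within a library do not depend on this scaling. As a percentage of miR-148b-3p reads, miR-148a-3p was at 12.2, 12.0, 13.6 and 11.8 in the H1299/EV libraries and at 19.5, 13.97, 16.9 and 19.3 in the mutant libraries, untreated before treated. All 4 mutant libraries were above all 4 H1299/EV libraries, but narrowly. The nearest were the second untreated mutant library, with 70 against 501 reads, and the first treated H1299/EV library, with 42 against 309. The log2 difference between the lines was 0.47. By an exact two-sided permutation of the line labels within each treatment, this gave p = 0.0556, the smallest that 36 arrangements can give, and 0.167 after adjustment over the 3 ratios tested. The test was chosen after the values were seen. How many other miRNAs separate the lines by such a ratio over all 8 libraries was not counted. For levels, libraries of the lines did not overlap for 61.5% of tested miRNAs untreated and 46.7% in RPM under etoposide. Those shares set 2 libraries against 2 and are not a background for this ratio. For miR-152-3p the percentages were 2.82, 2.67, 9.39 and 1.69 against 1.69, 0.200, 1.83 and 1.75, and the log2 difference of -1.53 had an exact p = 0.167. For miR-148b-5p, the other arm of the same hairpin, they were 4.90, 4.67, 11.003 and 4.13 against 14.8, 8.78, 9.92 and 10.4, and the log2 difference of 0.90 had an exact p = 0.167. The first treated H1299/EV library was the highest of its line for all 3 ratios.

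The miR-130, miR-301 and miR-454 family carries the hexamer of the seed 1 base earlier, and its sequences are shown for that reason, with the hexamer AGUGCA at bases 2 to 7 in capitals.
miR-130b-3p: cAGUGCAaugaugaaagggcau
miR-301a-3p: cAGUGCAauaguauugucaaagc
miR-301b: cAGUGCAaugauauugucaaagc
miR-454-3p: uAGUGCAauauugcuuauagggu
All 5 members listed for this family, those above and miR-130a-3p, were tested in every comparison. Untreated, 0 were higher and 1 was lower in mutant cells: miR-130a-3p fell by 1.08 on the log2 scale (adjusted p = 0.0237, limma), from 914 and 1261 to 381 and 675 normalized counts. Under etoposide 0 were higher and 2 were lower, miR-130a-3p at -1.19 (adjusted p = 0.0060, edgeR) and miR-454-3p at -1.09 (adjusted p = 0.0129, edgeR). Over all tested miRNAs 9.54% were lower untreated and 14.4% under etoposide. The untreated call of miR-130a-3p was lost without the second H1299/EV library (-0.85) and without the first (-0.67) or the second mutant library (-1.49), and in 5 of 11 alternatives that kept all libraries. Under etoposide both calls were lost without the second treated H1299/EV library (-1.02 for miR-130a-3p, -0.55 for miR-454-3p) and without either treated mutant library. The median log2 difference of the list was -0.37 untreated and -0.36 under etoposide, against 0.10 and 0.05 over all tested miRNAs. The list did not move as a whole. Untreated, miR-130a-3p, miR-301a-3p and miR-454-3p had lower means in mutant cells, while miR-130b-3p and miR-301b had higher ones. Normalized counts of miR-130b-3p were 50.5 and 73.3 in H1299/EV and 91.3 and 104 in mutant cells. Those of miR-301b were 18 and 7.97 against 27.7 and 22.2. Neither was called. Etoposide changed none of them past the test in either line.

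Other miRNAs known to target DNA methyltransferases moved in both directions between the lines. Of 7 listed, 6 were tested, miR-143-3p being under the filter. Over all tested miRNAs, 9.54% were called lower and 10.9% higher in mutant cells untreated, and 14.4% lower and 8.08% higher under etoposide. After etoposide, 0.676% of all tested miRNAs were called in H1299/EV and 0 in mutant cells. Untreated, miR-29b-3p (1.16, adjusted p = 0.0031, limma) and miR-29c-3p (1.13, adjusted p = 0.0433, limma), which target DNMT3A and DNMT3B, were called higher in mutant cells, while miR-126-3p (-0.90, adjusted p = 0.0366, limma) and miR-185-5p (-0.96, adjusted p = 0.0318, limma) were called lower. For miR-29a-3p, of the same family as miR-29b-3p, the difference was 0.02 (interval -0.52 to 0.56, adjusted p = 0.966, limma). Each of these untreated calls was lost when either mutant library was left out. Those of miR-29c-3p (0.89 to 1.37) and miR-126-3p (-1.16 to -0.65) were also lost without either H1299/EV library, and that of miR-185-5p without the second (-0.57). With all libraries kept, miR-29c-3p was called in 4 of 11 alternatives and miR-29b-3p in 9. Under etoposide, edgeR called miR-29b-3p (1.77, adjusted p = 0.0011) and miR-29c-3p (1.24, adjusted p = 0.0131) higher and miR-126-3p (-1.04, adjusted p = 0.0164) and miR-342-3p (-1.01, adjusted p = 0.0171) lower. Each of these calls was lost without the first treated mutant library, and those other than miR-29b-3p also without the second. Without the second treated H1299/EV library miR-29b-3p (1.16), miR-29c-3p (0.93) and miR-342-3p (-0.91) were not called, and without the first miR-29b-3p was at 2.86. In H1299/EV, miR-29b-3p fell by 2.10 after etoposide on the log2 scale (adjusted p = 0.0172, limma). This call was lost without the first (-2.03) or the second untreated library (-2.17) and without the second treated one (-1.30), stood at -2.89 without the first treated one, and held in 7 of 11 alternatives that kept all libraries. No listed miRNA was called in mutant cells after etoposide.

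The miRNAs with the pattern most like the abundant members were sought among 130 miRNAs with a mean of at least 50 reads, by Pearson r of log2 RPM over the 8 libraries. For miR-148a-3p these were let-7e-5p (r = 0.956), miR-30e-5p (0.931) and miR-27b-3p (0.930), and its r with miR-148b-3p was 0.845. For miR-148b-3p they were miR-769-5p (0.931), miR-101-3p (0.902) and miR-425-5p (0.899). All values come from the same libraries and share their depth and the share taken by miR-21-5p. After TMM scaling the r of miR-148a-3p with let-7e-5p was 0.775, still the highest of the 130, while miR-30e-5p (0.571) fell to rank 6 and miR-27b-3p (0.542) to rank 8. For miR-148b-3p, miR-101-3p (0.820) was at rank 2 after TMM scaling, miR-425-5p (0.800) at rank 5 and miR-769-5p (0.765) at rank 7. By Spearman's rho miR-425-5p was at rank 27. Apart from let-7e-5p and miR-101-3p, the miRNAs named as most alike thus did not keep a place among the first 3. Between miR-148a-3p and miR-148b-3p, r was 0.684 after TMM scaling. This put miR-148b-3p at rank 3 for miR-148a-3p, and miR-148a-3p at rank 15 for miR-148b-3p. By rho these ranks were 7 and 3.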

How the data were processed

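Per the methods of the study, the authors trimmed the reads, kept those of fixed quality and length, aligned them with SHRiMP to miRBase and with Novoalign to GRCh37/hg19, counted them per feature and normalized each comparison with DESeq. In each of 3 deposited tables the normalized signal holds reads over a library's size factor, set within that table, so each comparison was tested in its own table. Dividing by what 1 read is worth gave whole reads for 100% of values (tolerance 0.0051). The deposited tables of comparisons hold the authors' group means, fold changes and p-values and were not used.

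Each table was fitted with limma 3.58.1 in R 4.3.3 (eBayes, trend on intensity), taking log2 of the normalized count plus 1 and keeping miRNAs whose mean was at least 3, and edgeR 4.0.16 (quasi-likelihood, TMM) was run on the recovered reads of 8 libraries with a mean of at least 3. On the recovered reads of untreated cells, edgeR called 43 miRNAs and DESeq2 1.42.0 called 34, against 62 by limma. All p-values were adjusted by Benjamini-Hochberg over all miRNAs tested. Named are the members, the other arms, the miR-130, miR-301 and miR-454 family, miRNAs that target DNA methyltransferases (those called) and, for members with a mean of at least 50 reads, the 3 most similar miRNAs. Levels were planned as RPM. TMM-scaled levels and the ratio tests were added after the data were seen. The members and lists were chosen with earlier results of these data known. Sequences are from RefSeq, where 825 of 945 miRNAs matched. The fits were also run on reads simulated for the untreated comparison, with large planted changes. The fits of 8 libraries were not tested in this way. Python 3.11.15 and scipy 1.17.1 were used for the rest.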

Additional observations from a re-analysis of the deposited data

How the results depend on the processing

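The count of called miRNAs, untreated mutant against H1299/EV, was 62 and became 38 with equal miRNA totals, 37 with equal totals without miR-21-5p, 39 by limma without the trend, 34 by DESeq2 and 0 with a replicate block. No source used here says that the replicate numbers pair the samples. Deviations of same-numbered libraries correlated at -0.03, 0.04 and -0.08, which cannot exclude a pairing. Under the block, miR-152-3p was at -2.01 untreated (adjusted p = 0.123, limma) and at -1.56 under etoposide (adjusted p = 0.0906, edgeR). Untreated, miR-152-3p was also not called with equal totals (-2.11), equal totals without miR-21-5p (-2.10), edgeR (-2.37) and DESeq2 (-2.35), the adjusted p over alternatives that keep all libraries ranging from 0.0229 to 0.186. Under etoposide it was not called without a filter (-1.48) and by DESeq2 (-1.61), with a range of 0.0305 to 0.151. In H1299/EV, etoposide calls went from 2, both lower, to 0 with equal totals, with or without miR-21-5p. By edgeR and by DESeq2 there was 1, again lower. Without the trend there was also 1, but higher, so that neither of the 2 calls was kept. In mutant cells they went from 0 to 2 at a mean of at least 10 and with equal totals, 4 with equal totals without miR-21-5p and 1 by DESeq2. Under etoposide, line calls went from 75 to 47 by DESeq2.

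Leaving out 1 library each gave 0 to 51 calls untreated, 0 without either mutant library, 0 to 1 for etoposide in H1299/EV, 0 to 9 in mutant cells (9 without the first treated library), 23 to 77 between lines under etoposide (23 without the first treated mutant library, 26 without the second, 37 without the second treated H1299/EV library) and 0 to 1 for the difference of the responses. Log2 differences of miR-152-3p then ranged from -2.73 to -1.29 untreated, -2.29 to -0.55 under etoposide, -0.26 to 1.28 for etoposide in H1299/EV, 0.66 to 2.20 for etoposide in mutant cells and 0.0025 to 1.995 for the difference of the responses. Those of miR-148a-3p ranged from -0.10 to 0.29, -0.030 to 0.49 and -0.25 to 0.37 in the first 3 of these comparisons. Those of miR-148b-3p ranged from -0.79 to 0.087, -0.64 to 0.083 and -0.42 to 0.41 in the same 3, from -0.24 to 0.67 for etoposide in mutant cells and from -0.27 to 0.70 for the difference of the responses. Those of miR-148b-5p ranged from -0.030 to 0.13 for etoposide in mutant cells and -0.036 to 0.65 between lines under etoposide. With all libraries kept, signs changed for miR-148a-3p untreated (-0.0012 with equal totals without miR-21-5p, -0.065 by edgeR), for miR-148b-3p under etoposide in H1299/EV (0.42 and 0.37 with equal totals, with and without miR-21-5p, 0.018 by edgeR, 0.055 by DESeq2) and for miR-148b-5p under etoposide in mutant cells (-0.067 with equal upper quartiles). None of these was called. By edgeR the median of all miRNAs, untreated, moved by -0.19, and by DESeq2 by -0.11. The cause of the lost calls was not tested. Depth limits miR-152-3p, with 1 to 29 reads per library, and miR-152-5p.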
